A study of Mus musculus with 5 samples.

Results

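Bile acids are made from cholesterol in hepatocytes, and 10 mouse genes that carry out or control this synthesis are described here across 5 liver arrays. They are Cyp7a1, Cyp8b1, Cyp27a1, Cyp7b1, Baat and Slc27a5, which encode enzymes, and Nr0b2, Nr1h4, Fgfr4 and Klb, which encode regulators and receptors. A probe belonged to the set when its gene symbol in the platform annotation, or an older synonym of it, was one of these names. All 10 genes were found, each with 1 probe, among 16637 genes named on the array.

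The study asked how nordihydroguaiaretic acid (NDGA), a lignan of the creosote bush with lipoxygenase-inhibiting and antioxidant activity, affects liver lipid metabolism in obese mice, and the title names PPAR-alpha, a nuclear receptor of fatty acid oxidation, as part of the route. The groups were wild-type (WT) mice on high-fat diet with NDGA, WT mice on high-fat diet alone, ob/ob mice on chow with NDGA, ob/ob mice on chow alone, and WT mice on chow. All mice were of C57BL/6 background and kept on their diet for 16 weeks, and NDGA was given at 2.5 g per kg of food. The ob/ob mouse lacks functional leptin in all its cells, so its obesity, high food intake and hormonal state come together. The labels state neither the age nor the sex of the mice. Liver RNA of 3 animals was used per group and each group has 1 Cy5-labelled array; whether the RNA was pooled is not stated. There are therefore no replicates, no test was possible for any gene, and each difference below compares 2 arrays, with variation among mice unmeasured.

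Deposited intensities had array medians between 38.1 and 47.0, except for 71.0 on ob/ob chow with NDGA. The arrays were therefore quantile normalized, and differences are given as log2(intensity + 50) of one array minus the other, which understates the change of dim genes. A difference of 1 is 2-fold on this scale. For genes with a pair of bright probes, the SD per probe of these differences was 0.35 with the high-fat diet, 0.34 with NDGA added to it, 0.29 between genotypes and 0.46 with NDGA in ob/ob. This SD holds the error between probes on the same arrays and no variation between mice. Of the 6 hepatocyte markers named on the array, Alb read at least 62274 and Apob at least 35782 on all 5 arrays. The summed normalized intensity of the 6 ranged from 172245 to 178878, but it is carried by Alb, Apoa1 and Apob, of which Alb was at or near the scanner limit throughout. Among the markers below that limit, Cps1 read 1984 on WT high-fat with NDGA, 3233 on WT high-fat, 9688 on ob/ob with NDGA, 1405 on ob/ob chow and 3053 on WT chow. Ttr read 4655, 7340, 16747, 4829 and 6431 on the same arrays in the same order, and Tat was dim, at 13.9 to 56.8. The 8 skeletal muscle markers summed to 7331 on WT high-fat with NDGA, 1515 on WT high-fat, 2863 on ob/ob with NDGA, 2331 on ob/ob chow and 1224 on WT chow. The 8 macrophage markers summed to 3799, 7964, 8557, 8429 and 4292 on the same arrays in the same order. In liver tissue, fewer cells of a type and less RNA per cell cannot be told apart.

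In the classic pathway of bile acid synthesis, Cyp7a1 adds the first hydroxyl group to cholesterol and sets the rate, and Cyp8b1 directs the product towards cholic acid. In the alternative pathway, the mitochondrial enzyme Cyp27a1 first oxidises the side chain and Cyp7b1 then hydroxylates the oxysterol. Slc27a5 activates bile acids with coenzyme A and Baat joins them to taurine or glycine. Bile acids bind the nuclear receptor FXR, encoded by Nr1h4, which induces the corepressor SHP, encoded by Nr0b2; SHP lowers Cyp7a1 and Cyp8b1 transcription. FXR in the ileum also induces the hormone FGF15, which reaches the hepatocyte receptor FGFR4 and its coreceptor beta-klotho, encoded by Klb, and lowers Cyp7a1.

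Cyp7a1 was higher on both NDGA arrays than on the array of the same genotype and diet without NDGA. It read an intensity of 1598 on WT high-fat with NDGA, 499.7 on WT high-fat, 892 on ob/ob with NDGA, 139 on ob/ob chow and 308 on WT chow. The highest array was thus WT high-fat with NDGA and the lowest ob/ob chow. After normalization the order was WT high-fat with NDGA, ob/ob with NDGA, WT high-fat, WT chow and ob/ob chow, with 9.87-fold between the ends. Only the step between ob/ob with NDGA and WT high-fat, 0.13 on the log2 scale, was smaller than the largest SD between probes.

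NDGA added to the high-fat diet, against that diet alone, gave a log2 difference of 1.53 for Cyp7a1, or 2.89-fold. Cyp7a1 ranked 24 from the highest among 8319 expressed genes, those with a mean over both arrays at or above the median of all genes. In ob/ob mice, NDGA against chow alone gave 1.57, or 2.98-fold, and rank 68. These 2 comparisons share no array, and after normalization their Cyp7a1 differences lay 0.04 apart (-0.04, WT minus ob/ob). Without normalization the differences were 1.58 in WT and 2.32 in ob/ob, so their closeness rests on the scaling. Base diet and genotype both differ between the 2 comparisons and cannot be told apart. Of the 77 expressed genes with a 2-fold or larger increase with NDGA in WT and the 573 in ob/ob, 10 were in both lists, which is 13.0% of the WT list and 1.75% of the ob/ob list; Cyp7a1 was the only bile acid member among them. Of all expressed genes, 6.89% were in the ob/ob list and 0.926% in the WT list.

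Without NDGA, Cyp7a1 was 0.62 higher on high-fat diet than on chow in WT mice and lower in ob/ob than in WT mice on chow (-0.83). Both differences use the WT chow array. They were 1.76 and 2.85 times the SD between probes of their comparison, and neither reached 2-fold.

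**Figure D1:**
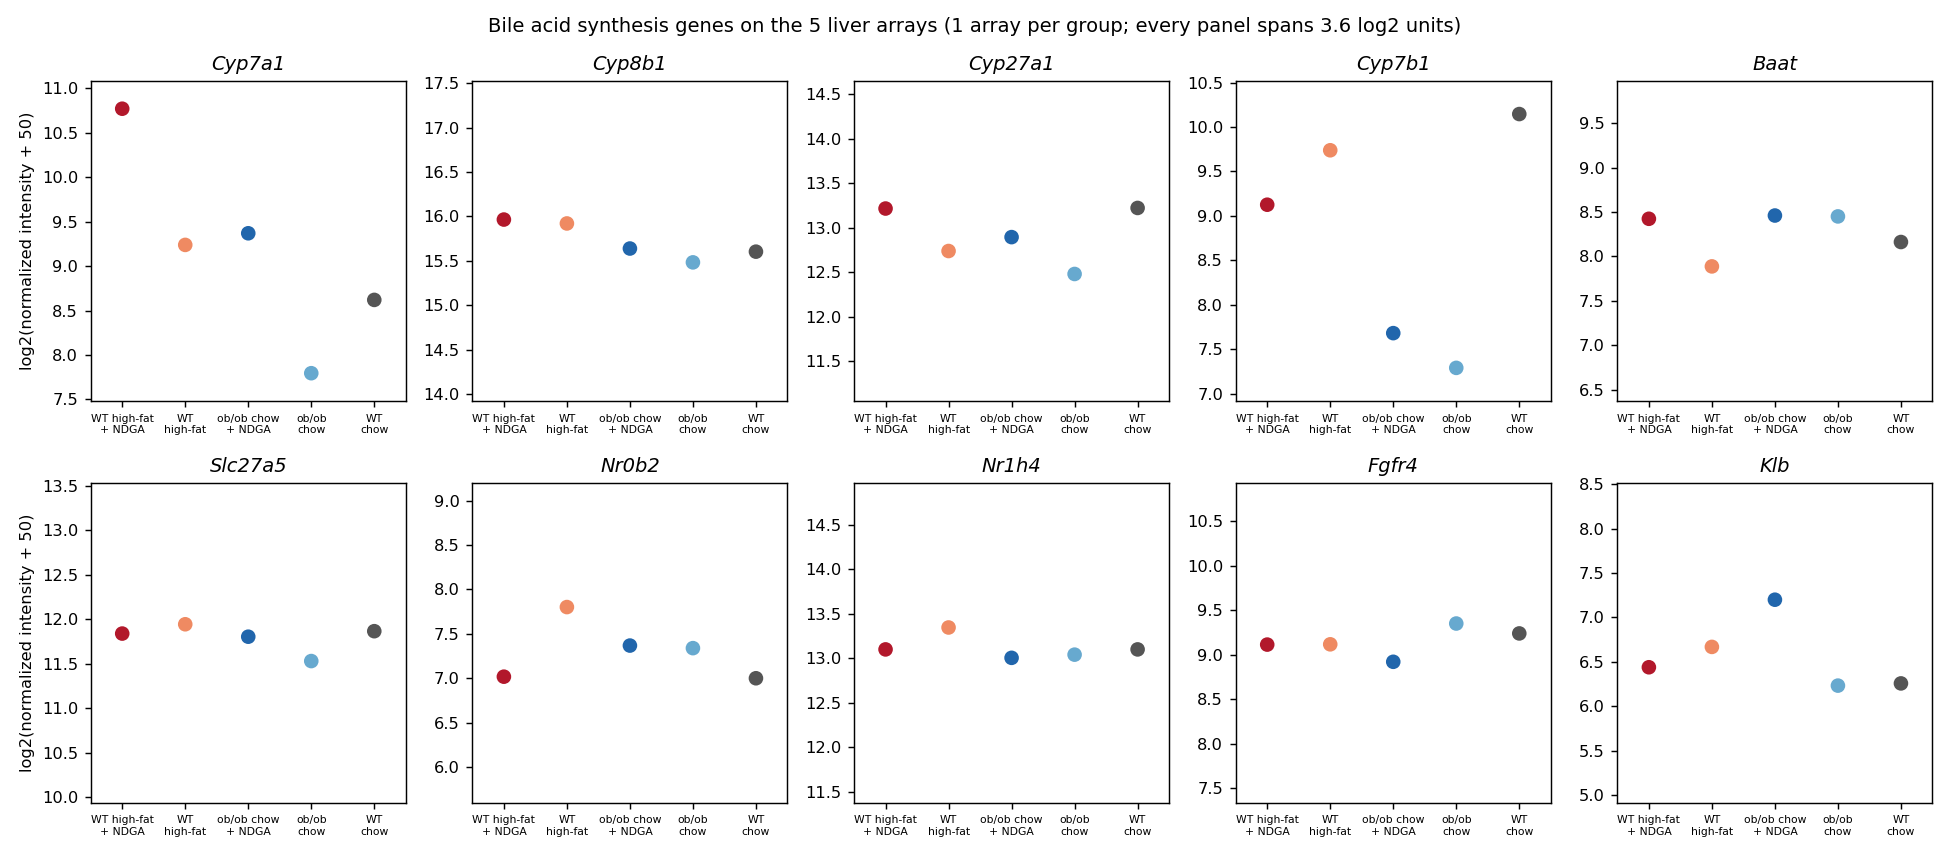
Normalized level of each of the 10 genes on the 5 arrays, as log2(intensity + 50) on the vertical axis, with 1 point per array and every panel spanning the same log2 range. Cyp7a1 and Cyp7b1 span 2.98 and 2.86 log2 units over the arrays, and the other 8 genes span 0.34 to 0.97.

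Cyp7b1 had the largest difference of any member, and it lay between genotypes. Its intensity was 490 on WT high-fat with NDGA, 723 on WT high-fat, 219 on ob/ob with NDGA, 86.8 on ob/ob chow and 987 on WT chow. Both ob/ob arrays were below all 3 WT arrays. ob/ob against WT on chow gave -2.86, or 0.138-fold, which ranked 16 from the lowest of 8319 expressed genes and was 9.86 times the SD between probes.

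Cyp7b1 was lower on high-fat diet than on chow (-0.41) and lower again with NDGA on high-fat diet than without (-0.61). With NDGA in ob/ob it was higher (0.39), less than the SD between probes of that comparison (0.46). The NDGA differences in WT and ob/ob thus had opposite signs and differed by -1.004 (WT minus ob/ob), which was not tested.

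Cyp7b1 is more strongly expressed in male than in female mouse liver under growth hormone control, so other genes of that kind are given beside it. Of 8 male-biased genes on the array, 5 were lower by 2-fold or more in ob/ob than in WT on chow and 0 were higher, with a median of -1.40. Hsd3b5, a male-specific steroid dehydrogenase, was at -5.30. The organic anion transporter Slco1a1 was at -3.56, Susd4 at -3.29 and the peroxisomal hydrolase Nudt7 at -1.48. Of 7 female-biased genes, 4 were higher by 2-fold or more and 0 were lower, with a median of 1.25; Cyp2b9 was at 3.48, Cyp2b13 at 1.55, Abcd2 at 1.26 and Cyp17a1 at 1.25. As means of their 2 probes Slco1a1 was at -2.18, Susd4 at -2.14 and Abcd2 at 0.78, and without normalization Cyp17a1 was at 0.94. Of all expressed genes in that comparison, 1.85% were lower by as much and 1.06% were higher. On high-fat diet against chow, where Cyp7b1 differed by -0.41, the male-biased list went both ways, with 1 gene higher by 2-fold or more, 2 lower and a median of -0.07. Hsd3b5 differed by -4.82 and Slco1a1 by -1.57, but Cyp2d9 by 1.03 and Nudt7 by 0.02. The female-biased list had 3 of 7 higher, 0 lower and a median of 0.81 there. Of all expressed genes on high-fat diet against chow, 2.18% were higher by 2-fold or more and 1.37% were lower. Whether sex or growth hormone action differed between the groups was not tested.

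Cyp27a1, the other enzyme of the alternative pathway, was lowest on ob/ob chow. It read 7968 on WT high-fat with NDGA, 6587 on WT high-fat, 11663 on ob/ob with NDGA, 4110 on ob/ob chow and 8585 on WT chow. The log2 differences were -0.48 with the high-fat diet, 0.48 with NDGA added to that diet, -0.74 between genotypes (ob/ob minus WT) and 0.41 with NDGA in ob/ob. After normalization WT high-fat with NDGA and WT chow were level (9466 and 9509). Every step between neighbouring arrays was under the largest SD between probes. The difference between genotypes, which are not neighbours in this order, was 2.56 times the SD between probes of its comparison. Without normalization the ob/ob difference was -1.05 and the NDGA difference in ob/ob was 1.49, so the 2-fold mark was passed or missed according to the scaling.

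The ratio of Cyp7a1 to Cyp7b1 within an array cancels a single scaling factor of that array, but not shifts that vary with intensity. Relative to WT chow, the ratio of their deposited intensities was 10.4-fold higher on WT high-fat with NDGA, 2.22-fold on WT high-fat, 13.1-fold on ob/ob with NDGA and 5.12-fold on ob/ob chow. The ratio of Cyp7a1 to Cyp27a1 was 5.59, 2.12, 2.13 and 0.940 times that on WT chow on the same arrays. Both ratios were higher with NDGA than without it in each genotype. On ob/ob chow the ratio to Cyp27a1 was close to that on WT chow and the ratio to Cyp7b1 was not. In log2 units the ratio to Cyp27a1 was -0.09 from deposited and -0.25 from normalized intensities. The ratio to Cyp7b1 was 2.36 and 2.35. These pairs were chosen after their values were seen, and the ratios show unequal change and not which gene changed.

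**Figure D2:**
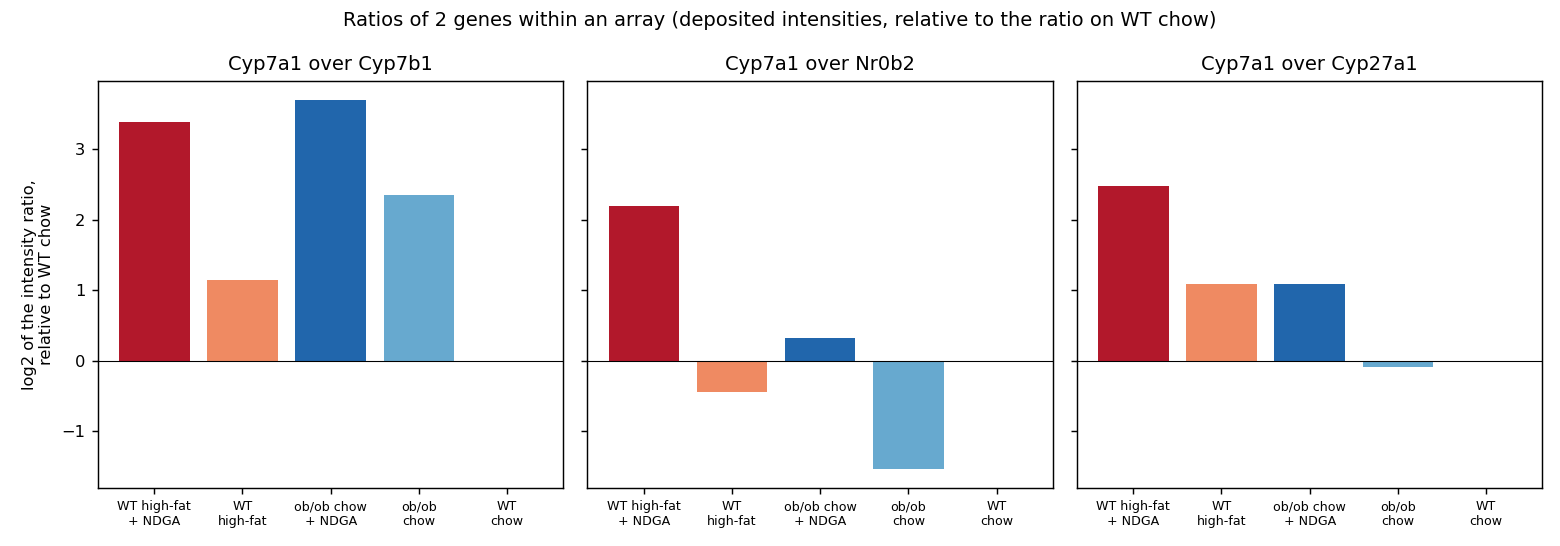
Log2 of the ratio of Cyp7a1 to Cyp7b1, Nr0b2 and Cyp27a1 (deposited intensities) on each array, relative to the same ratio on WT chow, which is 0 by construction. In all 3 panels WT high-fat with NDGA lies above WT high-fat and ob/ob with NDGA above ob/ob chow.

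Cyp8b1, whose activity sets the share of cholic acid, was read by a probe near the limit of the scanner, which lies just above 65000. It read 61864.5 on WT high-fat with NDGA, 63445.5 on WT high-fat, 64660 on ob/ob with NDGA, 36970 on ob/ob chow and 49099 on WT chow. The log2 differences were 0.32 with the high-fat diet, 0.04 with NDGA added to that diet, -0.12 between genotypes (ob/ob minus WT) and 0.16 with NDGA in ob/ob, all within the SD between probes. The first 3 readings, which include both NDGA arrays, leave little room for a higher value, so an increase of Cyp8b1 like that of Cyp7a1 could not have been measured.

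SHP acts on Cyp8b1 and on its own gene through LRH-1 and HNF4-alpha, nuclear receptors that bind the promoters. The 250 bases before the RefSeq start (GRCm38.p6) are shown for Cyp8b1 (chr9:121916306-121916555, minus strand) and Nr0b2 (chr4:133553126-133553375, plus strand), as the target and the repressor of this loop. Each is written 5′ to 3′ on the gene's strand, and capitals mark CAAGG, the core of the LRH-1 recognition sequence, searched on both strands with its reverse complement CCTTG.
Cyp8b1: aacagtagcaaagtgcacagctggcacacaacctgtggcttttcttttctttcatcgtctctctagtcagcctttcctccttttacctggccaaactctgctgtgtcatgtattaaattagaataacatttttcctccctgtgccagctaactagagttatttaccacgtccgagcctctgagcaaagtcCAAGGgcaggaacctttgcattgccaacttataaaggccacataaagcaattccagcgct
Nr0b2: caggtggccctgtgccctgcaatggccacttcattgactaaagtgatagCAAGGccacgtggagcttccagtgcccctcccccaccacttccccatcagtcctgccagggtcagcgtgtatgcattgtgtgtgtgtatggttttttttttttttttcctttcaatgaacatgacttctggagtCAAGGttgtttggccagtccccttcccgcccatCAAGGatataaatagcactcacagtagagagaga
The Cyp8b1 window holds CAAGG once, 60 to 56 bases before the start, and the Nr0b2 window holds it 3 times, beginning 201, 67 and 34 bases before the start. The letters occur in 46.1% of 32536 such windows, so their presence alone is common. Among the 6 members with a window, 3 held CAAGG and 1, Nr1h4, held the nuclear receptor half-site AGGTCA (or TGACCT), which 14% of all windows hold. A match is a description of the letters and not of a bound site.

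Nr0b2 was highest on WT high-fat diet after normalization. Its intensity was 78.7 on WT high-fat with NDGA, 155 on WT high-fat, 162 on ob/ob with NDGA, 91.5 on ob/ob chow and 69.7 on WT chow, all of them low readings. The log2 differences were 0.80 with the high-fat diet, -0.78 with NDGA added to that diet, 0.34 between genotypes (ob/ob minus WT) and 0.03 with NDGA in ob/ob. The first pair uses the same WT high-fat array, with opposite sign, and so is not independent. On the normalized linear scale without the offset, Nr0b2 was 2.22-fold on high-fat diet relative to chow and 0.460-fold with NDGA relative to high-fat diet alone. With NDGA in WT, Cyp7a1 was at 1.53 and Nr0b2 at -0.78. With NDGA in ob/ob they were at 1.57 and 0.03, or at 2.32 and 0.58 without normalization. The part of SHP in the Cyp7a1 differences was not tested.

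Nr1h4, which encodes FXR, varied least of the members. It read 7389 on WT high-fat with NDGA, 9739 on WT high-fat, 12669 on ob/ob with NDGA, 6310 on ob/ob chow and 7895 on WT chow. After normalization the arrays lay within 1.27-fold of each other, and the log2 differences were 0.25, -0.25, -0.06 and -0.04 for high-fat diet, NDGA in WT, ob/ob and NDGA in ob/ob. The high deposited value on ob/ob with NDGA goes with the brightness of that array: without normalization the difference was 1.00, against a median of 0.68 over all expressed genes.

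Fgfr4 was nearly level too. Its intensity was 487 on WT high-fat with NDGA, 456 on WT high-fat, 632 on ob/ob with NDGA, 467 on ob/ob chow and 501 on WT chow. Its differences were -0.12 with the high-fat diet, 0.00 with NDGA added to that diet, 0.11 between genotypes (ob/ob minus WT) and -0.43 with NDGA in ob/ob. The last was 0.40 without normalization, so its sign rests on the scaling.

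Klb, the coreceptor, was dim and passed the filter on low values in none of the 4 comparisons. It read 36.9 on WT high-fat with NDGA, 44.3 on WT high-fat, 137 on ob/ob with NDGA, 21.5 on ob/ob chow and 22.6 on WT chow. The ob/ob array with NDGA was the single one at or above the median of all genes. Its log2 differences were 0.41 with the high-fat diet, -0.23 with NDGA added to that diet, -0.02 between genotypes (ob/ob minus WT) and 0.97 with NDGA in ob/ob. With an offset of 16 in place of 50 the last became 1.46. At these intensities the size of a fold depends on the offset.

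Baat and Slc27a5, the conjugating enzymes, stayed within 1.62-fold and 1.34-fold over the 5 arrays after normalization. Baat read 286 on WT high-fat with NDGA, 166 on WT high-fat, 438 on ob/ob with NDGA, 236 on ob/ob chow and 214 on WT chow. Its largest difference was 0.54 for NDGA in WT, 1.59 times the SD between probes, against 0.01 for NDGA in ob/ob. Slc27a5 read 3335, 3633, 5243, 2198 and 3357 on the same arrays, and its largest difference was that of ob/ob against WT (-0.34).

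**Figure D3:**
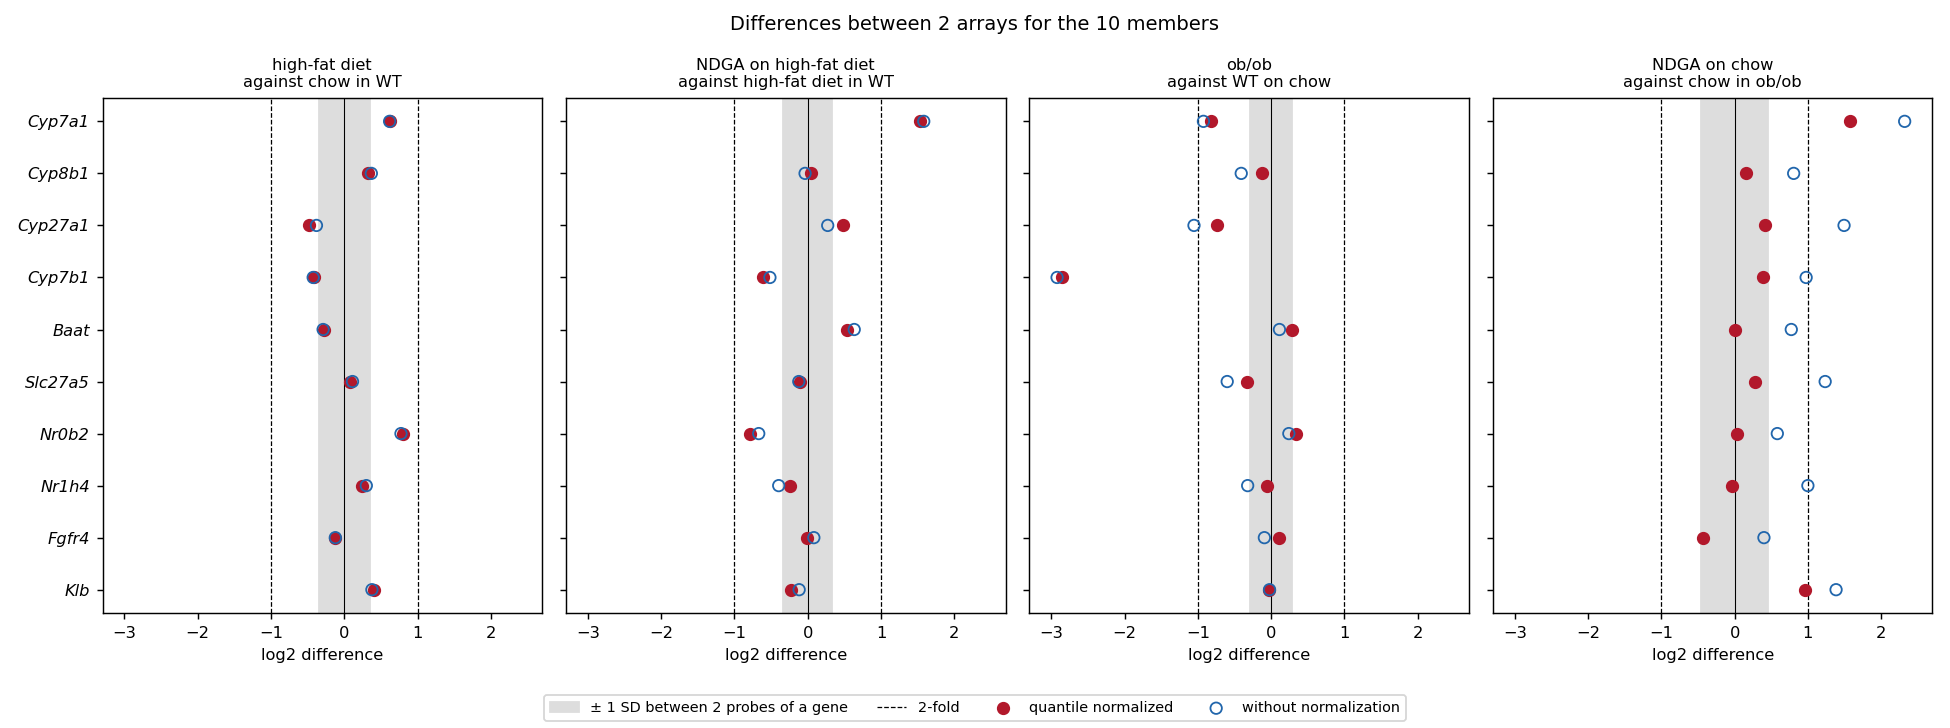
Log2 difference (horizontal axis) of each gene in the 4 comparisons, quantile normalized (filled) and without normalization (open); grey bands are ± 1 SD between the probes of a gene and dashed lines mark 2-fold. With NDGA in ob/ob all 10 open points lie above 0, and Cyp7a1 is the farthest right in both NDGA panels.

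Read as a set, no more than 1 member was 2-fold apart in any comparison after normalization. By sign, 6 of 10 members were above 0 on high-fat diet and 4 with NDGA in WT. In ob/ob against WT 3 were above 0, and with NDGA in ob/ob 8 were, or all 10 without normalization. With NDGA in WT, 1 of 10 members (Cyp7a1) was at least 2-fold higher and 0 lower, with a median of -0.05; of all 8319 expressed genes 0.926% were higher by that much and 1.6% were lower, with a median of -0.03. With NDGA in ob/ob, 1 of 10 (Cyp7a1) was higher and 0 lower, with a median of 0.21, against 6.89% of expressed genes higher, 0.505% lower and a median of -0.09. In ob/ob against WT, 0 were higher and 1 (Cyp7b1) lower, with a median of -0.09, against 1.06% and 1.85% of expressed genes and a median of 0.04. On high-fat diet against chow, 0 members were 2-fold apart in either direction and their median was 0.16, against 2.18% higher, 1.37% lower and a median of -0.01 over expressed genes. With so few members the counts are given as a description.

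Without normalization the median of all expressed genes was 0.68 for NDGA in ob/ob and -0.15 for ob/ob against WT. For NDGA in ob/ob, 4 members were then at least 2-fold higher, while 32.5% of all expressed genes were. Klb (1.38) is among the 4 but, being dim, not among those expressed genes. Cyp7a1 was at least 2-fold higher in both NDGA comparisons under all 6 ways of processing, from 1.47 to 1.59 in WT and from 1.57 to 2.32 in ob/ob. Cyp7b1 was at least 2-fold lower in ob/ob against WT under all 6, from -3.17 to -2.77.

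**Figure D4:**
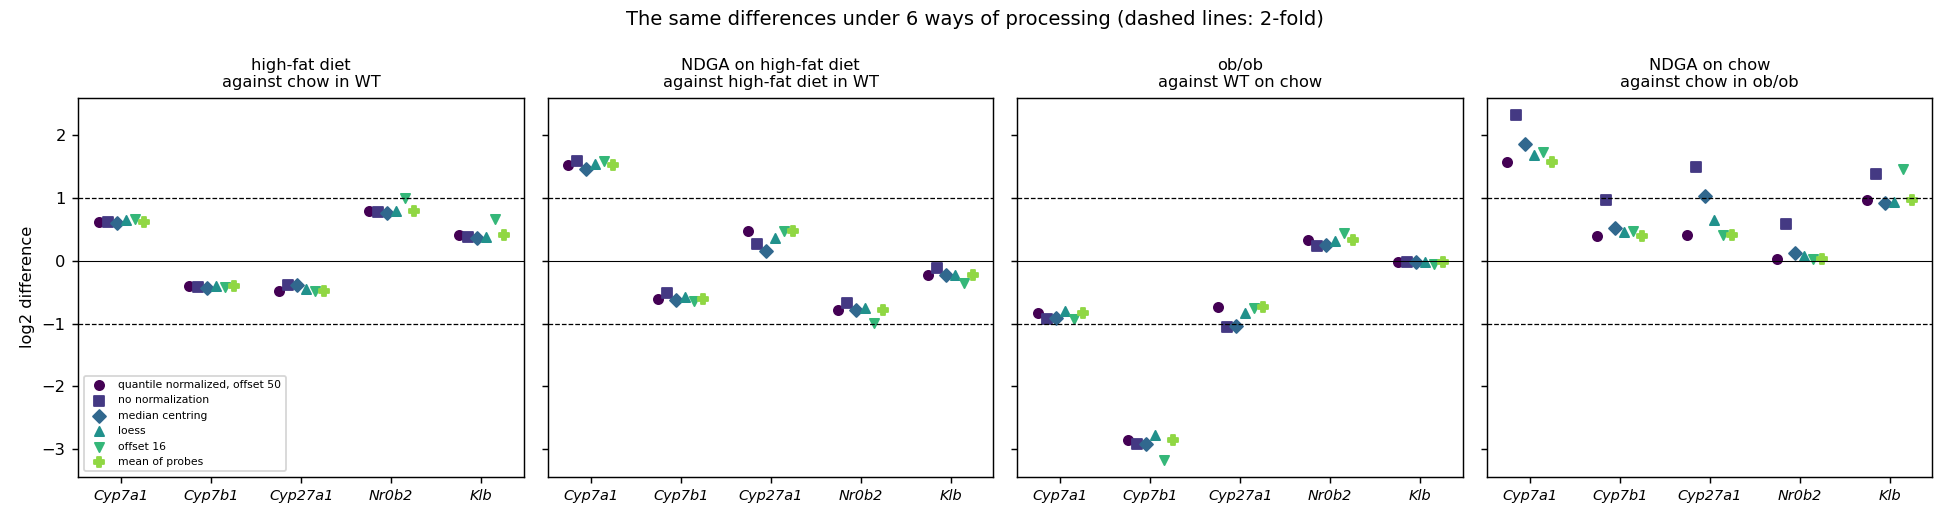
Log2 difference (vertical axis) of 5 members in the 4 comparisons under 6 ways of processing, 1 symbol each, with dashed lines at 2-fold. The Cyp7a1 symbols lie above the upper line in both NDGA panels and those of Cyp7b1 below the lower line for ob/ob against WT, whereas Cyp27a1 and Klb fall on both sides of a line for NDGA in ob/ob.

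The other enzymes of bile acid synthesis mostly differed by less than 2-fold after normalization. Of 14 genes on the array, 0 were 2-fold apart for high-fat diet or for NDGA in WT, 1 was lower in ob/ob against WT, and 1 was higher with NDGA in ob/ob. Beside these, 1.85% of all expressed genes were lower in ob/ob and 6.89% were higher with NDGA in ob/ob, so the list's count in the NDGA comparison was near that of genes in general. The list medians were 0.03, 0.03, -0.11 and 0.16 for high-fat diet, NDGA in WT, ob/ob and NDGA in ob/ob. Without normalization the last was 0.83, beside a median of 0.68 over all expressed genes. Cyp2c70, which makes the muricholic acids of mice, was the one lower in ob/ob (-1.06), and was also lower on high-fat diet (-0.83). Cyp39a1, an oxysterol hydroxylase, was at -0.89 in ob/ob (-1.11 without normalization) and -0.66 on high-fat diet. Abcd3, a peroxisomal transporter that imports bile acid intermediates, was the one higher with NDGA in ob/ob (1.28), and Hsd17b4, a peroxisomal enzyme that shortens their side chain, was at 0.69. Hsd3b7, the next enzyme after Cyp7a1, was saturated on all 5 arrays, so a difference could not be measured.

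Among transcription factors and coregulators of the pathway, 16 of the 18 listed were named on the array. In the 4 comparisons 1 was at least 2-fold higher on high-fat diet, 0 with NDGA in WT, 0 in ob/ob and 3 with NDGA in ob/ob, and none was lower. On high-fat diet 2.18% of all expressed genes were higher by as much and 1.37% lower. The shares were 0.926% and 1.6% with NDGA in WT, and 1.06% and 1.85% in ob/ob. For NDGA in ob/ob they were 6.89% and 0.505%, or 32.5% higher without normalization. Onecut1, a hepatocyte factor, was the one on high-fat diet (1.05, or 0.62 as the mean of its probes). With NDGA in ob/ob the 3 were Dbp, a clock output factor that acts on the Cyp7a1 promoter (1.20), Nr1i3, which encodes the xenobiotic receptor CAR (1.15), and Nr1h3 (1.12). Nr1h3 encodes LXR-alpha, the oxysterol receptor that induces Cyp7a1 in mice.

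In WT with NDGA, where Cyp7a1 was higher by 1.53, Dbp was at -0.07, Nr1i3 at -0.32 and Nr1h3 at -0.67. The part of these factors in the Cyp7a1 differences was not tested. Ppara, chosen because the title names its product, was at -0.32 with NDGA in WT and 0.14 in ob/ob. Cyp7a1 follows a daily rhythm in mice; the labels do not state the hour at which livers were taken, and the part of the clock in these differences was not tested.

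Of 12 genes of the FGF receptor route, all were on the array and only Fgfr2 was 2-fold apart, lower with NDGA in ob/ob (-1.005, but -0.15 as the mean of its probes and -0.17 without normalization). Of all expressed genes in that comparison, 0.505% were lower by 2-fold or more and 6.89% were higher. Without normalization the list's median in that comparison was 0.49, against -0.11 with it. The adaptor Grb2 was at 0.80 in the same comparison (1.68 without normalization) and at -0.56 with NDGA in WT. Spry4, an inhibitor of receptor signalling, was at -0.40 with NDGA in ob/ob (0.38 without normalization) and at 0.40 with NDGA in WT. The largest difference of Spry4 was -0.64, on high-fat diet against chow. Fgf21, a hormone made by the liver that also binds beta-klotho, was at 0.41 with NDGA in ob/ob and at -0.19 with NDGA in WT. Fgf15, made in the ileum, read 59.1 to 103 on the 5 liver arrays.

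The genes whose pattern over the 5 arrays was nearest to that of Cyp7a1 were sought among 8279 bright, unsaturated genes, by the root mean square distance between centred log2 profiles. They were Idi1, an enzyme of cholesterol synthesis, at 0.29, Gpcpd1, a phosphodiesterase of glycerophosphocholine, at 0.39 and the keratin gene Krt23 at 0.41. Idi1 was at 0.87 with NDGA in WT and 1.38 with NDGA in ob/ob, and its intensity was 7084 on WT high-fat with NDGA, 4246 on WT high-fat, 7452 on ob/ob with NDGA, 1398 on ob/ob chow and 2306 on WT chow. The nearest to Cyp7b1 were Susd4 at 0.25, Sult2a8, a sulfotransferase of the liver that acts on bile acids, at 0.30 and Dr1, a general repressor of transcription, at 0.35. Sult2a8 read 256.4 on WT high-fat with NDGA, 278.5 on WT high-fat, 90.1 on ob/ob with NDGA, 36.4 on ob/ob chow and 303.5 on WT chow, with a difference of -2.03 for ob/ob against WT. With 5 arrays many genes can share a pattern, and the distances are a description.

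Markers of other cells moved on some of the same arrays. On WT high-fat with NDGA, where Cyp7a1 was highest, the muscle creatine kinase Ckm read 1501 against 11.7 on WT high-fat, and on ob/ob with NDGA it read 316 against 12.4 on ob/ob chow. Ckm was thus higher on each NDGA array than on its partner. Of the 8 muscle markers only Tnnt3 went the other way in WT, at 215 with NDGA against 365 without it. On ob/ob chow Pvalb and Tnnt3, at 906 and 783, carried the muscle sum. The other muscle markers read at most 40.9 there. The macrophage sum was lower with NDGA in WT (3799 against 7964) and nearly level in ob/ob (8557 against 8429). The ob/ob sum was carried most by C1qb, and single markers differed unequally. In deposited intensity C1qb read 4892 with NDGA against 3113 without it, Adgre1 723 against 166 and Mpeg1 1307 against 321. The medians of these 2 arrays were 71.0 and 38.1. The 6 cholangiocyte markers summed to 2741 on WT high-fat with NDGA, 4470 on WT high-fat, 5672 on ob/ob with NDGA, 5242 on ob/ob chow and 3048 on WT chow. Spp1, which encodes osteopontin, read 1216 against 2892 with NDGA in WT, whereas Sox9 read 1158 against 962 and Epcam and Cftr stayed at or below 19.8 on all 5 arrays. Of the 6 intestine markers, Apoa4, which liver also expresses, carried the sum, and Slc10a2 and Vil1 stayed below 10 on all arrays. The part of these cells in the differences of the bile acid genes was not tested.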

How the data were processed

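Each of 5 groups of mice gave 1 Phalanx Mouse OneArray of liver RNA, labelled with Cy5 per the labels. The deposited intensities are on a linear scale, since they run from below 0, a sign of subtracted background, to a limit above 65000. No source used here names the scanner, background correction or scaling. Of 29922 probes, 21020 carried 1 gene symbol, 0 several and 8902 none; symbols were updated through a RefSeq table of GRCm38.p6 (17558 current, 3410 through a synonym, 52 kept). Each of the 16637 genes was represented by its brightest probe, and each member has 1 probe.

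The 5 arrays were quantile normalized because their medians differed by 0.46 on the log2 scale. Then log2(value + 50) was taken and arrays were subtracted. Genes with a mean of both arrays at or above the median were called expressed, and differences of at least 1 were counted. With 1 array per group no test was run, and the number of arrays limits the precision. The members and lists were chosen with earlier results of these data known. Named genes are the members, up to 4 bright genes of each list with the largest difference, and the 3 nearest patterns of members that span at least 1 log2 unit; Hsd3b7, Ppara, Fgf15, Cyp2d9, Ckm and the other cell type markers were named after their values were seen. Alternatives were no normalization, median centring, loess (span 0.3), an offset of 16 and the mean of all probes, and for all genes no filter or the 75th percentile. Steps were tested on simulated data. Promoters come from RefSeq (GRCm38.p6), where 6 of the 10 members matched. Probe sequences were not used here. Python 3.11.15, pandas 2.3.3, numpy 2.4.6 and statsmodels 0.14.6 were used.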

Additional observations from a re-analysis of the deposited data

How the results depend on the processing

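No paired analysis was possible because each group has 1 array. No member at least 2-fold apart changed its sign under the 5 alternatives, and the mean of all probes left the members unchanged since each has 1 probe. Without normalization, 4 members were at least 2-fold higher with NDGA in ob/ob and their median was 0.99, and 2 were lower in ob/ob against WT. The shares of all expressed genes were 32.5% and 2.49% in the same directions. With median centring the member counts were 2 and 2, and the shares of all expressed genes were 15.03% and 2.44%. An offset of 16 gave 2 members higher with NDGA in ob/ob and 1 higher on high-fat diet (Nr0b2). With that offset 9.03% and 3.01% of all expressed genes were higher in these comparisons. The member counts with NDGA in ob/ob without normalization and with that offset hold Klb, which did not pass the filter for expressed genes. The share of all 2-fold calls that were higher was 36.7% for NDGA in WT, against 50% without normalization and 28.7% with median centring, and 36.4% for ob/ob against WT, against 19.1% without normalization and 19.8% with median centring. Without the filter on dim genes, the shares of all genes 2-fold apart were lower in each comparison and direction, for example 3.76% higher with NDGA in ob/ob. Cyp8b1 is limited by the scanner, and Klb and Nr0b2 by low signal.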
